A study of Homo sapiens with 12 samples.

Results

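The genes described here were 10 members of the matrix metalloproteinase (MMP) system: MMP1, MMP3, MMP10, MMP2, MMP9, MMP13 and MMP14, and the tissue inhibitors of metalloproteinases TIMP1, TIMP2 and TIMP3. They were chosen by gene symbol, through the Ensembl identifiers of the count table, with earlier results of these data known. They were 10 of 58735 genes in that table. Of the 10, 9 passed the filter on low counts, and MMP13 was too low to read. MMP9 and MMP10 passed it but stayed under 1 CPM (counts scaled to 1000000 per library) in every library, so that only MMP1, MMP2, MMP3, MMP14 and the 3 TIMPs could be followed with precision.

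All 12 libraries were made from ES2, a line of human ovarian carcinoma cells, in its FDX2-iKO form, in which the endogenous FDX2 gene was knocked out while a genome-editing-resistant, HA-tagged FDX2 was expressed from a doxycycline-dependent TetON cassette. FDX2 is a mitochondrial ferredoxin used in iron-sulfur cluster assembly. Doxycycline (Doxy) kept FDX2-HA expressed, and its withdrawal caused FDX2 loss. Poly(A) RNA was sequenced from 4 conditions of 3 libraries each, labelled as biological replicates.

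The cells of 2 conditions were cultured for 6 days at 20% O2, with Doxy or without Doxy. Those of the other 2 were cultured for 4 days at 20% O2 and then for 3 days at 3% O2, again with Doxy or without Doxy, so that oxygen and total time in culture (6 against 7 days) cannot be told apart. The knockout and the TetON cassette were present in every condition. No condition had Doxy changed without a change of FDX2-HA, so that loss of FDX2 and absence of Doxy cannot be told apart either. Cells of 1 line, derived from a single knockout clone, limit each condition as a model.

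MMPs are zinc-dependent endopeptidases that are made as inactive proenzymes and, once activated, cleave collagens, proteoglycans and other proteins of the extracellular matrix and cell surface. TIMPs bind the active enzymes and block them, and the balance between both groups is a classical measure of matrix turnover. Collagenases and stromelysins are well known in tumor invasion and are among the proteins that senescent cells often secrete.

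The catalytic domain of every MMP holds a zinc site in which 3 histidines bind the metal and a glutamate takes part in catalysis. Its 33 coding bases are shown for the 7 MMP members because they define the family that the counts describe and show how near the closest members lie to each other. The stretches were read from the GENCODE release 29 transcripts on GRCh38, on the coding strand, and capitals mark the codons of the 3 histidines and of the glutamate.
MMP1: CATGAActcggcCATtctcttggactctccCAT
MMP3: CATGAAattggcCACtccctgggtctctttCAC
MMP10: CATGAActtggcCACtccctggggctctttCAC
MMP13: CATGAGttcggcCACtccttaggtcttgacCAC
MMP2: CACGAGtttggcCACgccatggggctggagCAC
MMP9: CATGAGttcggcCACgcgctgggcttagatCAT
MMP14: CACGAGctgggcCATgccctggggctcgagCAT

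These sites lay in exon 5 of MMP1 (chr11:102795549-102795581, minus strand), MMP3 (chr11:102840535-102840567, minus), MMP10 (chr11:102776718-102776750, minus), MMP13 (chr11:102952115-102952147, minus) and MMP14 (chr14:22843283-22843315, plus). In the gelatinases MMP2 (chr16:55491827-55491859, plus) and MMP9 (chr20:46012453-46012485, plus) they lay in exon 8. MMP3 and MMP10 had the most alike sites of all pairs, with 31 of 33 bases identical, whereas MMP1 shared 24 of 33 with MMP3. Over the whole coding sequence, MMP3 and MMP10 were identical at 85.2% of 1428 aligned bases, against 67.3% for MMP1 and MMP3, and the other pairs of MMPs did not pass 66.2%.

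The longest run that MMP3 and MMP10 share without a mismatch was 96 bases in exon 3 (chr11:102842434-102842529 in MMP3 and chr11:102779216-102779311 in MMP10). It is shown because sequence inside it cannot tell the genes apart, and it is shorter than the 150-base reads of the study. Only coding sequences were compared, and how shared reads were counted is not given in the sources used here.
MMP3 and MMP10, shared run: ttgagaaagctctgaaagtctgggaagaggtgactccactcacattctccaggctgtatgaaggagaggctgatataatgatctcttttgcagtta

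The libraries held 24958386 to 34313637 counts each. FDX2 itself had 2 to 13 counts in each library, with and without Doxy, and therefore gave no check of the labels. A single library stood apart: in replicate 1 of 3% O2 without Doxy, 1.2% of the counts fell on antisense genes against 0.343% to 0.559% elsewhere. The libraries also differed in the level of GC-rich genes relative to GC-poor ones, from -0.42 to 0.54 on the log2 scale, also within conditions. Without Doxy this difference was -0.269, -0.245 and -0.421 at 20% O2 and 0.02, 0.491 and 0.158 at 3% O2, without overlap. PAX8 and the keratins KRT7, KRT8 and KRT18 were measured in every library, the epithelial and ovarian markers EPCAM, CDH1, WT1 and MUC16 were too low to test, and of the 9 markers of other cell types only COL1A1, CDH5 and ACTA2 passed the filter. On FDX2 loss at 20% O2, KRT18 fell by 0.55 and KRT7 by 0.40 (log2) and ACTA2 rose by 1.09 from under 1 CPM, and at 3% O2 CDH5 rose by 0.49, and their part in the results was not tested. The immune and endothelial markers PTPRC, CD68, CD163, PECAM1 and VWF and the fibroblast marker DCN had 0 to 14 counts per library.

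**Figure D1:**
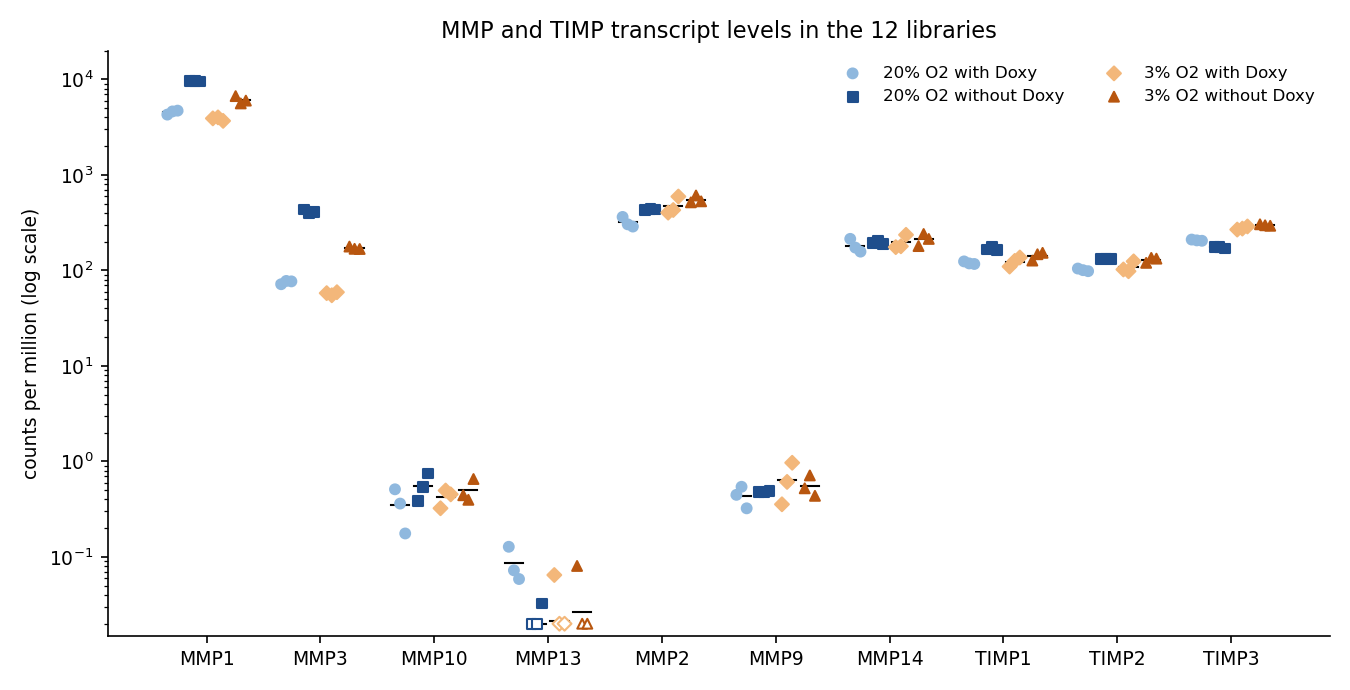
Levels in CPM (log scale) of the 10 members in each of the 12 libraries. Each point is 1 library, colors and shapes give the condition, black bars are means of 3 libraries, and open symbols at the lower edge are libraries with 0 counts. MMP1 lay far above all others, MMP3 separated the conditions most widely, and MMP9, MMP10 and MMP13 lay under 1 CPM.

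MMP1, the interstitial collagenase that cleaves fibrillar collagens, was the dominant member. Per kilobase of exon its mean level was 2308 ± 115.0 CPM (SD, n = 3) at 20% O2 with Doxy and 4854 ± 12.1 CPM without Doxy. At 3% O2 the corresponding levels were 1966 ± 84.3 and 3100 ± 278.0 CPM per kb. Among the 16891 genes tested, it ranked between 2 and 9 by level per kilobase over the 4 conditions. It made up 92.0% to 94.2% of the summed level of the 7 MMP members per kilobase in the 4 conditions.

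The remaining members followed at a distance in an order that depended on the condition. At 20% O2 with Doxy, the levels per kilobase ran from TIMP1 (77.9 ± 2.56 CPM, SD, n = 3) over MMP2 (64.6 ± 8.06), TIMP3 (45.1 ± 0.677), MMP14 (40.7 ± 6.56) and MMP3 (36.9 ± 1.56) to TIMP2 (18.0 ± 0.580). In that order the neighbors TIMP3, MMP14 and MMP3 lay within the spread of MMP14. At 20% O2 without Doxy, MMP3 moved up to the position directly under MMP1, with 202.5 ± 8.64 CPM per kb against 110.2 ± 4.74 for TIMP1. At 3% O2 without Doxy, MMP2 (112.0 ± 10.2), TIMP1 (92.6 ± 8.93) and MMP3 (83.8 ± 2.75) followed MMP1, and TIMP1 and MMP3 differed by less than the SD of TIMP1.

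MMP9, MMP10 and MMP13 were near or under the detection limit. MMP10, stromelysin 2, had 6 to 23 counts per library, and MMP9, gelatinase B, had 11 to 30. MMP13, collagenase 3, had 4, 2 and 2 counts in the 20% O2 libraries with Doxy and between 0 and 2 in all others, where a count of 0 allows up to 3. No fold change is given for MMP13, and the standard errors for MMP9 and MMP10 were 0.36 to 0.41 in each of the 4 pairwise comparisons, on the log2 scale.

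The first comparison asked what FDX2 loss did at ambient oxygen. MMP3 and MMP1 rose most, TIMP1, MMP2 and TIMP2 rose modestly, and TIMP3 fell. Of the 9 members tested, 5 were higher and 1 was lower without Doxy, beside 35.3% of all tested genes called in either direction (17.6% higher and 17.7% lower). All tests were edgeR's quasi-likelihood test, with p-values adjusted by Benjamini and Hochberg's method over all tested genes. In bulk RNA, fewer transcripts per cell and fewer expressing cells cannot be told apart. The median log2 change of the 9 members was 0.45, beside 0.009 over all tested genes.

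MMP3, stromelysin 1, cleaves proteoglycans and activates other proMMPs, proMMP1 among them. It stood at 71.8, 77.7 and 76.9 CPM in the +Doxy libraries at 20% O2 and at 434.2, 399.9 and 409.7 CPM without Doxy. All 3 libraries without Doxy lay several times above all 3 with Doxy. The rise was 5.49-fold, with a log2 change of 2.46 ± 0.056 (SE) and an edgeR adjusted p of 1.49e-09.

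MMP1 had 4290, 4629 and 4720 CPM with Doxy and 9556, 9589 and 9543 CPM without Doxy. The libraries without Doxy were close to each other, and all of them stood far above every +Doxy library. Its log2 change was 1.07 ± 0.061 (SE; 2.10-fold; edgeR adjusted p = 6.40e-07). Since MMP1 started from a far higher level, its difference per kilobase was larger than that of MMP3, whose fold change was the larger one.

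The 3 inhibitors did not move together. TIMP1, which binds most soluble MMPs, had 124.5, 118.6 and 117.0 CPM with Doxy and 166.0, 178.2 and 165.1 CPM without Doxy. TIMP2, an inhibitor that also serves as the adaptor by which MMP14 activates proMMP2, had 104.8, 100.8 and 98.4 CPM with Doxy and 132.2, 133.8 and 131.2 CPM without Doxy. For both genes every library without Doxy exceeded every library with it, and the log2 changes were 0.50 ± 0.087 for TIMP1 (edgeR adjusted p = 0.00117) and 0.39 ± 0.083 for TIMP2 (adjusted p = 0.00420).

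TIMP3, which is held in the matrix and also inhibits ADAM and ADAMTS proteases, went the other way. Its levels were 210.8, 206.7 and 204.7 CPM with Doxy and 177.8, 175.3 and 170.4 CPM without Doxy. The 2 sets did not overlap, and the drop was small, with a log2 change of -0.25 ± 0.044 (edgeR adjusted p = 0.00120).

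MMP2, gelatinase A, had 363.8, 304.4 and 288.4 CPM with Doxy and 429.0, 442.1 and 435.8 CPM without Doxy, with a log2 change of 0.45 ± 0.136 (edgeR adjusted p = 0.0241). Replicate 1 with Doxy lay nearest to the other condition. The call depended on single libraries: the adjusted p was 0.0821 without +Doxy replicate 2, 0.0858 without +Doxy replicate 3, 0.0606 without replicate 2 of the cells without Doxy and 0.0582 without their replicate 3. MMP14, the membrane-bound MMP that activates proMMP2, had 214.4, 173.6 and 157.6 CPM with Doxy and 193.9, 203.2 and 188.2 CPM without Doxy, and the 2 sets overlapped (log2 change 0.10, 95% CI -0.21 to 0.42).

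Both genes are GC-rich, and their values moved with the GC trend of the libraries. The transcripts of MMP14, TIMP1, MMP2 and TIMP2 held 58.9%, 57.9%, 56.5% and 53.7% GC, against 43.4% for MMP1, 44.8% for MMP3 and 48.7% for TIMP3. The 3 libraries with the strongest tilt toward GC-rich genes (replicate 1 of 20% O2 with Doxy at 0.49, replicate 3 of 3% O2 with Doxy at 0.54 and replicate 2 of 3% O2 without Doxy at 0.49) had the highest MMP2 and MMP14 levels of their conditions. With that trend taken out, an alternative chosen after seeing the data, the log2 change on FDX2 loss at 20% O2 was 0.60 for MMP2 and 0.30 for MMP14, with edgeR adjusted p of 6.88e-06 and 0.000247. MMP1 and MMP3 changed by 1.08 and 2.47 in the same fit, which called 4414 of all 16891 tested genes higher and 3427 lower.

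**Figure D2:**
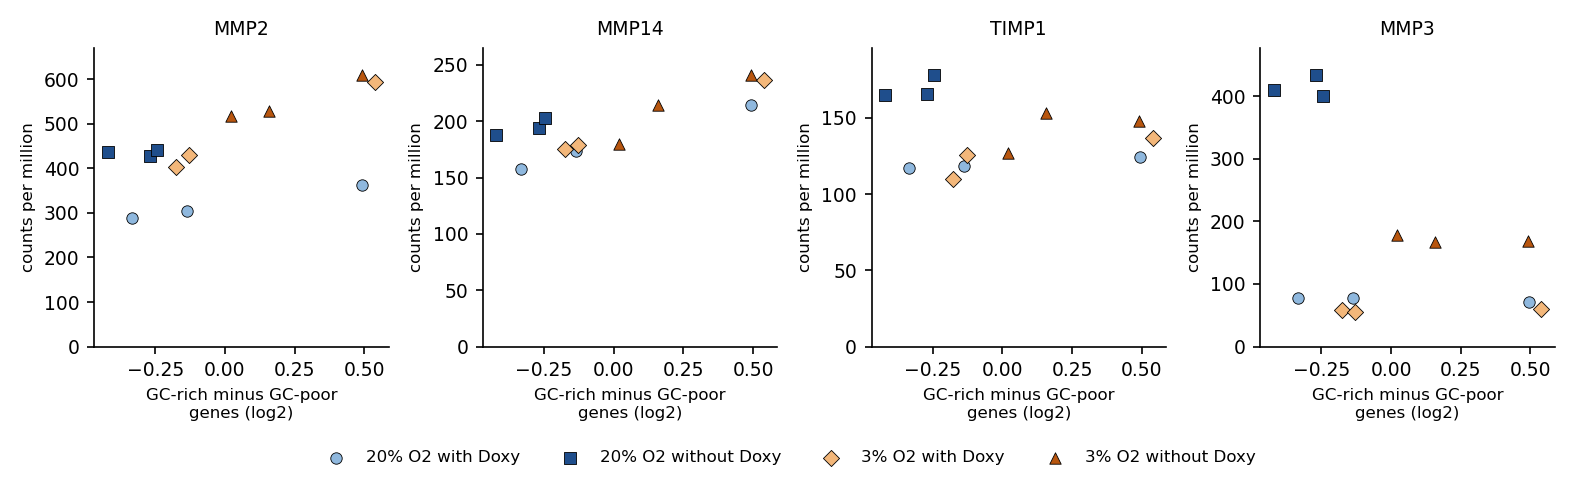
Levels of MMP2, MMP14, TIMP1 and MMP3 (CPM, axis from 0) against the log2 difference between GC-rich and GC-poor genes in the same library. Each point is 1 of the 12 libraries. Within a condition, MMP2 and MMP14 were highest in the library farthest to the right in the 3 conditions that hold one near 0.5. MMP3 was higher without Doxy at both oxygen levels, and lower at 3% than at 20% O2 with and without Doxy.

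The second comparison asked the same at 3% O2. MMP3 and MMP1 rose again, and no other member passed the threshold in this fit. These 2 of 9 members stood beside 7.31% of all tested genes called (4.2% higher and 3.11% lower). The count was 4 without replicate 3 of 3% O2 with Doxy, 2 without the library that stood apart, 3 with DESeq2 and 1 with the replicate block in a fit of the compared conditions alone. With the GC trend taken out it was 5, with TIMP2 at 0.25 (edgeR adjusted p = 0.00339), MMP2 at 0.19 (0.0398) and TIMP3 at 0.12 (0.0105) passing as well. That fit called 1791 of all 16891 tested genes higher and 1462 lower. With the GC trend left in, the median over the members was 0.21 (log2), beside 0.041 over all tested genes.

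MMP3 had 57.9, 55.0 and 59.3 CPM with Doxy at 3% O2 and 178.0, 168.6 and 167.9 CPM without Doxy. The 3 libraries of each condition were close together and the conditions were far apart. The log2 change was 1.58 ± 0.055 (2.99-fold; edgeR adjusted p = 1.82e-07), and 1.55 without the library that stood apart (adjusted p = 8.11e-07).

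MMP1 had 3916, 4012 and 3688 CPM with Doxy and 6697, 5615 and 6009 CPM without Doxy. The highest value came from that same library, and the remaining 2 without Doxy were still above all 3 with it. The log2 change was 0.66 ± 0.061 (1.58-fold; edgeR adjusted p = 0.000241), and 0.58 without that library (adjusted p = 0.000363). The pseudogene WTAPP1 runs on the opposite strand through this locus and overlaps 150 exon bases (7.61%) of MMP1 and 32 (1.56%) of MMP3. It had 20036 counts in that library and 334 to 6985 in the others. MMP1 had 105027 to 303340 counts, and MMP3 had 1440 to 13530, with 4422 in that library. At 20% O2 WTAPP1 stood at 18.0 to 65.1 CPM with Doxy and 106.8 to 224.2 CPM without Doxy. At 3% O2 its ranges overlapped (10.8 to 68.9 CPM with Doxy and 25.7 to 806.6 CPM without Doxy). Whether the counting used strand is not given in the sources used here, and how many WTAPP1 reads were counted for MMP1 or MMP3 was not tested.

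The members that did not pass the threshold at 3% O2 changed by -0.22 to 0.26 on the log2 scale. TIMP2 had 102.5, 98.2 and 124.6 CPM with Doxy and 120.2, 135.5 and 133.0 CPM without Doxy, with 1 +Doxy library inside the range of the others (log2 change 0.26, edgeR adjusted p = 0.0877). Without that library, +Doxy replicate 3, the change was 0.37 (adjusted p = 0.00693). TIMP1 changed by 0.20 (95% CI 0.008 to 0.392; adjusted p = 0.200), MMP2 by 0.21 (-0.08 to 0.51; 0.372) and MMP14 by 0.10 (-0.21 to 0.42; 0.706). MMP2 stood at 0.41 without the same library (adjusted p = 0.0338). TIMP3 had 268.3, 274.7 and 289.1 CPM with Doxy and 304.5, 297.4 and 293.8 CPM without Doxy, a change of 0.11 (adjusted p = 0.173).

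**Figure D3:**
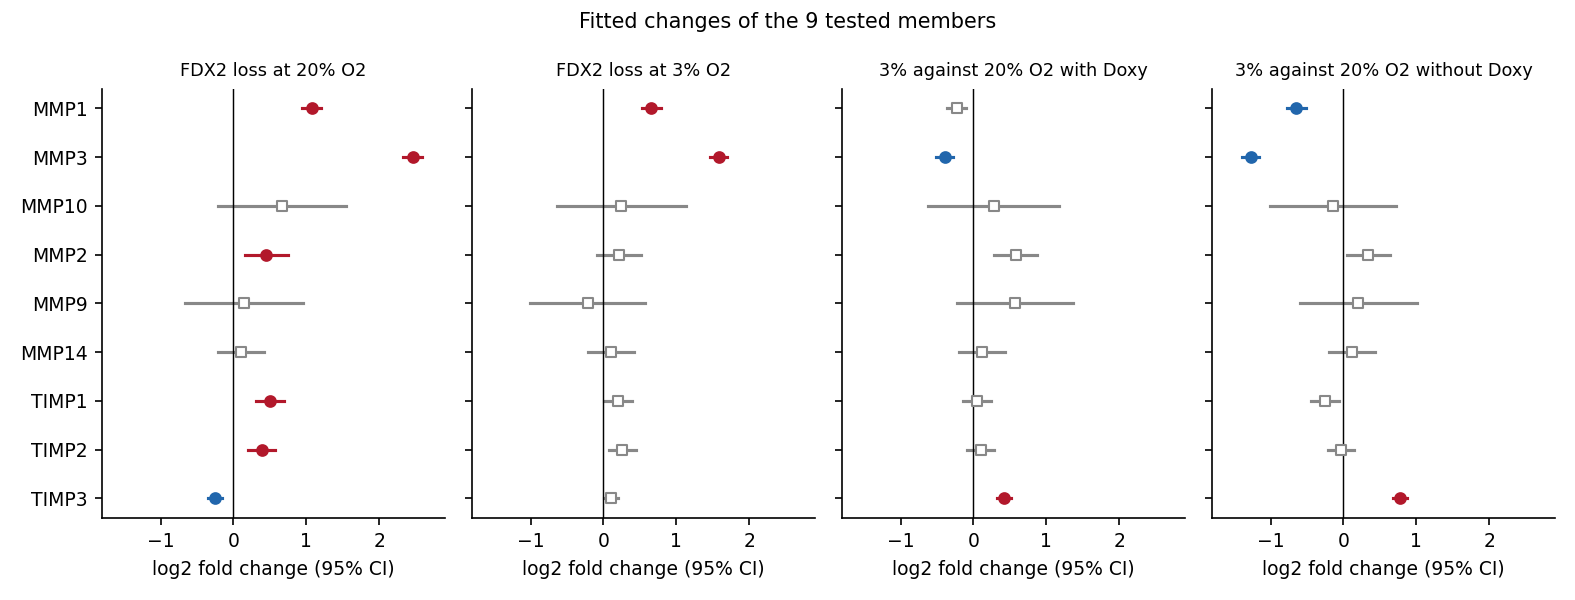
Fitted log2 fold changes of the 9 tested members with 95% confidence intervals in the 4 pairwise comparisons. Filled circles passed an adjusted p of 0.05 (red higher, blue lower), and open squares did not. MMP3 and MMP1 lay to the right at both oxygen levels on FDX2 loss, with values of 2.46 and 1.07 at 20% O2 and 1.58 and 0.66 at 3% O2.

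The responses at both oxygen levels were then compared in 1 model. For MMP3 the response at 3% O2 was smaller by a log2 difference of -0.88 ± 0.076 (edgeR adjusted p = 0.00022). For MMP1 the difference was -0.42 ± 0.086 (adjusted p = 0.0163), and for TIMP3 it was 0.36 ± 0.062 (adjusted p = 0.00691), since TIMP3 fell at 20% O2 and did not fall at 3% O2. These 3 of 9 members stood beside 7.29% of all tested genes called (3.21% higher and 4.08% lower).

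The MMP3 and TIMP3 differences passed the threshold under all 18 alternatives, whereas that of MMP1 was lost under 6 of 18. Those were the fit without a filter (adjusted p = 0.109), the replicate block (0.0512), and leaving out any 1 library of 20% O2 without Doxy (0.0632, 0.0628 and 0.0683 for replicates 1, 2 and 3) or replicate 2 of 3% O2 with Doxy (0.0711). Without the library that stood apart the differences were -0.49 for MMP1, -0.90 for MMP3 and 0.34 for TIMP3. For TIMP1 the difference was -0.30 (95% CI -0.57 to -0.03; edgeR adjusted p = 0.170) and for MMP2 -0.24 (-0.66 to 0.18; 0.495). With the GC trend taken out, 7 of the 9 members passed, and the further 4 were TIMP1 at -0.51 (adjusted p = 0.00733), MMP2 at -0.41 (0.00556), MMP14 at -0.24 (0.0225) and TIMP2 at -0.23 (0.0285). That fit called 1475 of all 16891 tested genes higher and 1618 lower. It also took out a difference between the conditions without Doxy, in which the trend did not overlap between 3% and 20% O2.

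The third comparison asked what 3% O2 did while FDX2-HA was expressed. MMP3 fell and TIMP3 rose. These 2 of 9 members stood beside 2.02% of all tested genes called (1.63% higher and 0.385% lower). The log2 change of MMP3 was -0.40 ± 0.054 (edgeR adjusted p = 0.00253), from the values of 71.8 to 77.7 CPM given above to 55.0 to 59.3 CPM. This call was lost when the compared conditions were fitted alone (adjusted p = 0.0608) and with the replicate block in that fit (0.681). That of TIMP3 was 0.42 ± 0.044 (adjusted p = 0.000318), and all 3 libraries at 3% O2 lay above all 3 at 20% O2, but it too was lost with the block in the fit of the compared conditions alone (0.567).

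MMP1 changed by -0.23 ± 0.061 between the +Doxy conditions and did not pass the threshold (edgeR adjusted p = 0.0876), although the 2 sets of libraries did not overlap. DESeq2 called this change, at an adjusted p of 0.0272, as did the fit with the GC trend taken out (-0.21, adjusted p = 0.0151). MMP2 had 403.5, 429.8 and 595.0 CPM at 3% O2 with Doxy, all above the 288.4 to 363.8 CPM at 20% O2. Replicate 3 at 3% O2, one of the 3 GC-tilted libraries, was far above the other two. The log2 change of MMP2 was 0.58 ± 0.136 (adjusted p = 0.0586), and 6 of 14 alternatives took it past the threshold, among them the fit with the GC trend taken out (0.55, adjusted p = 0.000164). That fit called 875 of all 16891 tested genes higher and 390 lower.

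The fourth comparison asked what 3% O2 did in FDX2-deficient cells. MMP3 fell by 1.27 ± 0.054 on the log2 scale (edgeR adjusted p = 3.79e-07), MMP1 fell by 0.65 ± 0.061 (adjusted p = 5.22e-05) and TIMP3 rose by 0.77 ± 0.044 (adjusted p = 2.18e-06). These 3 of 9 members stood beside 25.8% of all tested genes called (13.9% higher and 11.9% lower). The MMP3 libraries fell from 399.9 to 434.2 CPM at 20% O2 to between 167.9 and 178.0 CPM at 3% O2, and TIMP3 went from 170.4 to 177.8 CPM to between 293.8 and 304.5 CPM. In each of the 3 genes the conditions were separate, as they also were for MMP2 and TIMP1, which were not called. How many of all tested genes were so separated was not counted.

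TIMP1 was lower at 3% O2 without Doxy, at 127.0, 147.9 and 153.0 CPM, by a log2 difference of -0.25 ± 0.087 that did not pass (edgeR adjusted p = 0.0553). In this comparison same-numbered libraries deviated together, though the correlations of their deviations (0.19 to 0.497) overlapped those of differently numbered libraries (-0.473 to 0.231). Whether the numbers mark paired cultures is not given in the labels. With the replicate block in a fit of these 6 libraries, TIMP1 changed by -0.27 (adjusted p = 0.0273) and MMP2 by 0.33 (adjusted p = 0.0131), while with the block over all 12 libraries the adjusted p was 0.0635 and 0.135. MMP2 without the block changed by 0.34 ± 0.135 (adjusted p = 0.0861), from 429.0 to 442.1 CPM to between 517.0 and 610.0 CPM. With the GC trend taken out, TIMP1 changed by -0.49 (adjusted p = 0.000513), MMP14 by -0.15 (adjusted p = 0.0287), TIMP2 by -0.17 (adjusted p = 0.0162) and MMP2 by 0.13 (adjusted p = 0.106). That fit called 2898 of all 16891 tested genes higher and 2688 lower. It also took out a difference between these conditions, in which the trend did not overlap. Comparisons that share a condition share its 3 libraries, so that the 4 pairwise comparisons are not independent of each other.

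As a description of balance, the 7 MMP members were summed per kilobase, and so were the 3 TIMPs. The MMP sum was 2451 ± 102.1 CPM per kb (SD, n = 3) at 20% O2 with Doxy, 5189 ± 12.7 without Doxy, 2135 ± 57.6 at 3% O2 with Doxy and 3344 ± 264.9 without Doxy. The TIMP sum moved less, at 140.9 ± 3.84, 171.6 ± 5.24, 160.1 ± 13.0 and 180.4 ± 9.18 CPM per kb in the same order. The ratio of both sums was 17.4 ± 1.18, 30.3 ± 0.849, 13.4 ± 1.30 and 18.6 ± 2.43, so that 3% O2 without Doxy overlapped in its range (16.8 to 21.4) with 20% O2 with Doxy (16.1 to 18.3). Without MMP1 the ratio was 1.01 ± 0.066, 1.95 ± 0.080, 1.05 ± 0.103 and 1.35 ± 0.070. Transcript ratios are no measure of enzyme activity.

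**Figure D4:**
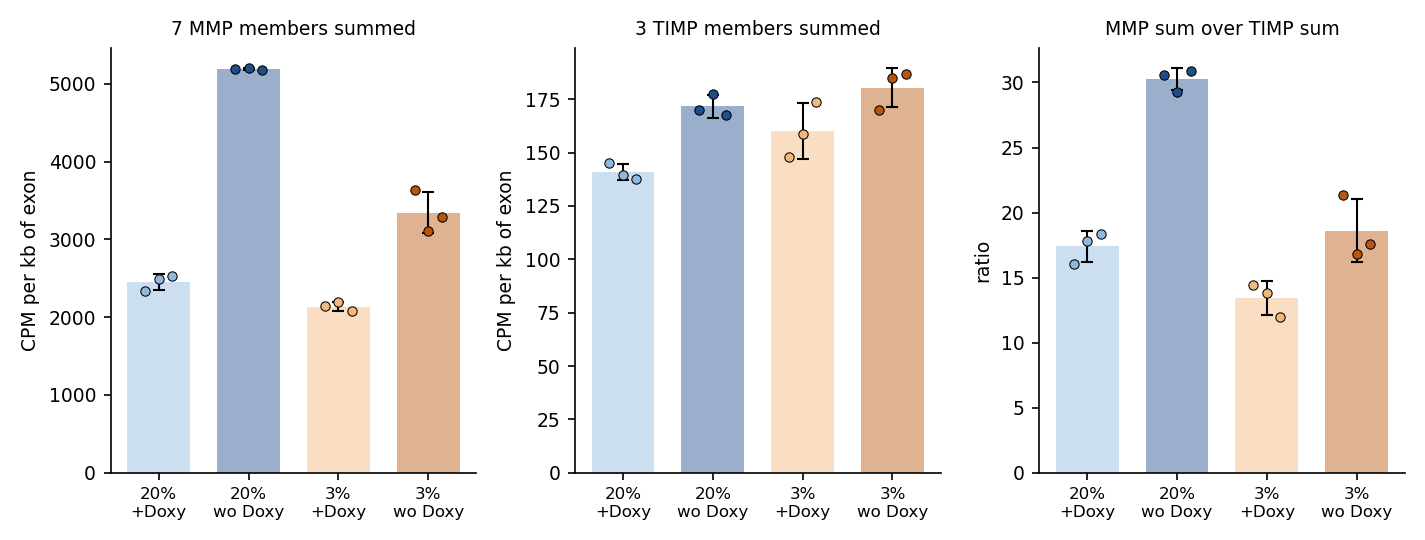
Summed levels of the 7 MMP and the 3 TIMP members in CPM per kilobase of exon, and the ratio of both sums, in the 4 conditions. Bars are means, error bars are SD and points are the 3 libraries of each condition. The MMP sum and the ratio were highest at 20% O2 without Doxy (5189 and 30.3).

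The ratio of TIMP3 to TIMP1 per kilobase showed how the inhibitors shifted against each other. It was 0.579 ± 0.010 (SD, n = 3) at 20% O2 with Doxy, 0.345 ± 0.015 without Doxy, 0.752 ± 0.058 at 3% O2 with Doxy and 0.706 ± 0.085 without Doxy. The 2 conditions at 3% O2 overlapped, and both lay above those at 20% O2. The ratio of MMP1 to MMP3 went from 62.6 ± 1.04 to 24.0 ± 1.04 on FDX2 loss at 20% O2 and from 70.3 ± 5.56 to 37.0 ± 2.25 at 3% O2.

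Because TIMP1 rose and TIMP3 fell at 20% O2, the 250 bases before the RefSeq start of each (GRCh38.p14) are shown. RefSeq promoter sequences were found for 4 of the 10 members, namely MMP10, MMP14, TIMP1 and TIMP3. Capitals mark matches on either strand to the AP-1 site TGAGTCA, its variant TGAGTAA, the TATA motif TATAAA, the GC box GGGCGG and the HIF-1 cores ACGTG and GCGTG, each searched also as its reverse complement. TIMP1 lies at chrX:47582186-47582435 (plus strand), where GENCODE places its earliest exon inside the stretch, and TIMP3 at chr22:32801455-32801704 (plus strand).
TIMP1: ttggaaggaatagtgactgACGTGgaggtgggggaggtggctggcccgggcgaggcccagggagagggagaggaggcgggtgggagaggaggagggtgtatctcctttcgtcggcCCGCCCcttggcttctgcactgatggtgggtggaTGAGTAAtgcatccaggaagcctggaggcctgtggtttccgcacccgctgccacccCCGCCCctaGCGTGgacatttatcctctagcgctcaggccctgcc
TIMP3: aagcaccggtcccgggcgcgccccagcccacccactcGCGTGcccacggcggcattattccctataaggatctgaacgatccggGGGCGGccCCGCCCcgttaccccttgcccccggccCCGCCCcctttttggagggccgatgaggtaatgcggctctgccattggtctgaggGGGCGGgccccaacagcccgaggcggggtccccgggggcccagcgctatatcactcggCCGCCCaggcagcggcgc

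TIMP1 held 1 match to the AP-1 variant, 2 GC boxes, and 1 match to each HIF-1 core, whereas TIMP3 held 5 GC boxes and 1 GCGTG core. Neither stretch matched TGAGTCA or TATAAA. Among 35116 promoters cut to the same 250 bases, 2.21% held TGAGTAA, 4.2% TGAGTCA, 10.7% TATAAA, 42.6% GGGCGG, 18.5% ACGTG and 32.2% GCGTG. MMP10 held a TATAAA motif from 31 to 26 bases before its start and 1 ACGTG core, and MMP14 held 1 GC box and 1 ACGTG core. These are matches of letters and were not tested as sites.

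MMP1, MMP3, MMP10 and MMP13 sit with 5 further MMP genes in the 11q22 cluster, and 16 genes of that region were followed in chromosome order. Of these, 11 could be tested, and 4 rose on FDX2 loss at both oxygen levels, BIRC3, MMP1, MMP3 and MMP12, beside 17.6% of all tested genes called higher at 20% O2 and 4.2% at 3% O2. At 3% O2, 2 of the 11 were called with the compared conditions alone and 1 with the replicate block in that fit. MMP12, the macrophage elastase, rose by 1.99 ± 0.170 (log2, SE) at 20% O2 and by 0.78 ± 0.170 at 3% O2 from a low level (0.840 and 0.918 CPM with Doxy), with edgeR adjusted p of 7.99e-06 and 0.0200. BIRC3, an apoptosis inhibitor that answers to NF-kappaB, rose by 1.72 ± 0.112 and 0.86 ± 0.115. For both the response at 3% O2 was smaller, by -1.21 for MMP12 (adjusted p = 0.0128) and by -0.87 for BIRC3 (adjusted p = 0.00941).

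The rise did not extend along the whole region. YAP1, BIRC2, TMEM123, DCUN1D5 and DYNC2H1, of which DCUN1D5 was the lowest at a mean of 179.0 CPM, changed by -0.16 to 0.14 on the log2 scale on FDX2 loss and none was called. MMP10, which lies between MMP8 and MMP1, changed by 0.67 ± 0.400 at 20% O2 and 0.25 ± 0.401 at 3% O2 (edgeR adjusted p = 0.224 and 0.756). WTAPP1 varied most between replicates, with log2 changes of 1.93 ± 1.14 and 2.77 ± 1.17 that were not called. MMP7, MMP20, MMP27, MMP8 and MMP13 had 0 to 9 counts per library.

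**Figure D5:**
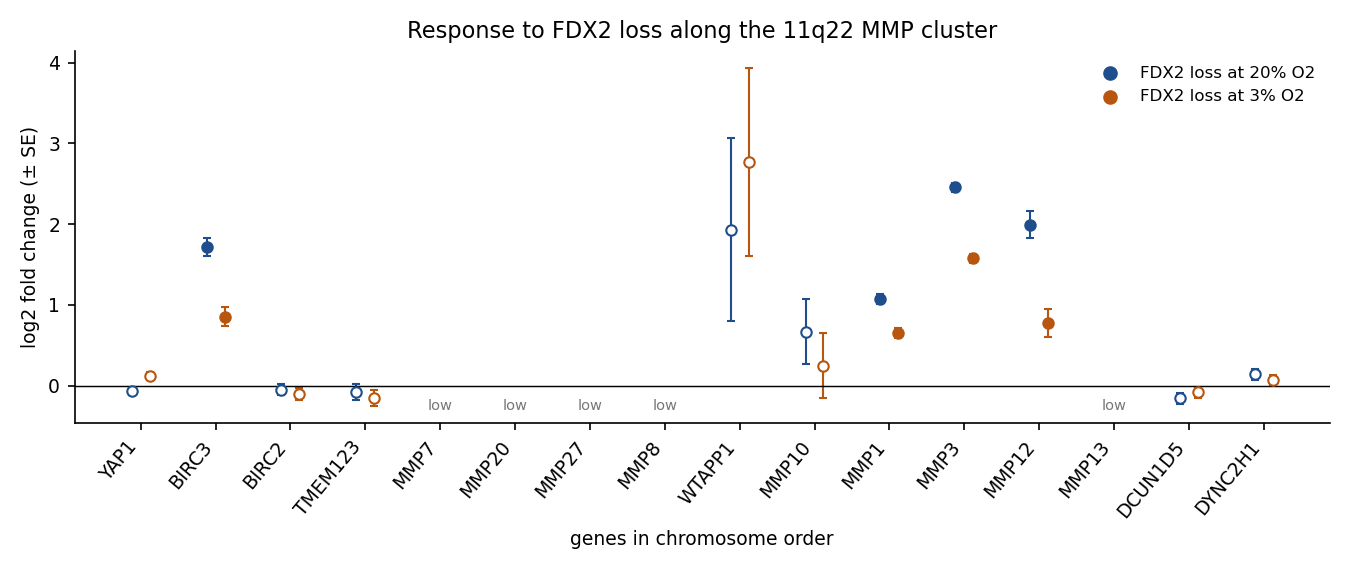
Log2 fold changes on FDX2 loss (± SE) for 16 genes of the 11q22 MMP cluster in chromosome order, at 20% O2 (blue) and 3% O2 (orange). Filled points passed an adjusted p of 0.05, and "low" marks genes with too few counts to test. BIRC3, MMP1, MMP3 and MMP12 stood above 0 at both oxygen levels, with their neighbors YAP1, BIRC2, TMEM123, DCUN1D5 and DYNC2H1 near 0.

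Of the 16 remaining MMP genes of the family, 7 could be tested. MMP12 and MMP19 rose on FDX2 loss at both oxygen levels, and none fell, beside the 35.3% and 7.31% of all tested genes called at 20% and 3% O2. MMP19, a soluble basement-membrane-cleaving MMP, rose by 0.72 ± 0.161 at 20% O2 (edgeR adjusted p = 0.00529) and by 0.66 ± 0.162 at 3% O2 (adjusted p = 0.0313), from 1.82 and 1.79 CPM with Doxy. The 3% O2 calls were not firm: none of the 7 was called without replicate 2 of either 3% O2 condition, and 1 was called without replicate 1 of either. At 3% against 20% O2 without Doxy, 2 of the 7 fell and none rose, beside 25.8% of all tested genes called.

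Among 24 activators, inhibitors and binding partners of MMPs, 15 could be tested, of which 6 rose and 3 fell on FDX2 loss at 20% O2, beside 35.3% of all tested genes called. SPOCK1, a secreted proteoglycan chosen after its values were seen, rose by 3.32 (edgeR adjusted p = 3.55e-05), from 0.229 to 2.31 CPM. ITGB3, the integrin subunit that can dock MMP2 at the cell surface, rose by 0.87 (edgeR adjusted p = 0.000113). TFPI2, a secreted serine protease inhibitor that limits proMMP activation, rose by 0.59 (adjusted p = 5.61e-05), and RECK, a membrane-anchored MMP inhibitor, by 0.36 (adjusted p = 0.00399). SDC1, a shed proteoglycan that binds MMPs, fell by 0.78 (adjusted p = 0.000835), CAV1, the caveolae protein, by 0.38 (adjusted p = 0.000269) and PLAUR, the urokinase receptor, by 0.23 (adjusted p = 0.0397). At 3% O2, 2 rose and none fell, beside 7.31% of all tested genes called: LRP1, the endocytic receptor that clears MMP and TIMP complexes, by 0.61 (adjusted p = 0.0475), and SPOCK1 by 1.48 (adjusted p = 0.0229), from 0.363 to 1.01 CPM. Leaving out replicate 1 of 3% O2 with Doxy, or replicate 2 or 3 of 3% O2 without Doxy, left none of the 15 called, and leaving out replicate 2 of 3% O2 with Doxy left 1.

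ADAM and ADAMTS proteases, which are metalloproteinases that TIMP3 also inhibits, were tested for 17 of 22 genes. At 20% O2, 5 rose and 3 fell on FDX2 loss, beside 35.3% of all tested genes called. The aggrecanases ADAMTS4 and ADAMTS5 rose by 0.70 and 0.49 and ADAM12 by 0.56, while the procollagen N-proteinases ADAMTS2 and ADAMTS3 fell by 0.63 and 0.70 and ADAMTS6 by 0.52 (edgeR adjusted p of 5.93e-06 to 0.0123 for these 6). At 3% O2, ADAM12 rose by 0.38 and ADAMTS5 by 0.40 (adjusted p = 0.000936 and 0.0206), and none fell, beside 7.31% of all tested genes called. Of the 17, 1 was called without replicate 1 or 2 of either 3% O2 condition, and 4 without replicate 3 of 3% O2 with Doxy.

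Of 16 transcription factors known to act on MMP promoters, all could be tested, and 4 rose and 2 fell at 20% O2, a share near the 35.3% of all tested genes called. FOSB, an AP-1 subunit, rose by 1.51 ± 0.102 (edgeR adjusted p = 1.68e-06), CEBPB by 0.74 ± 0.266 (adjusted p = 0.0497) and FOSL2 by 0.29 ± 0.095 (adjusted p = 0.0345). JUN, the usual partner of FOS proteins in AP-1, fell by 0.43 (adjusted p = 0.0274) and NFKB1 by 0.28 (adjusted p = 0.00137). Without replicate 2 of 20% O2 without Doxy 3 of the 16 were called, and without its replicate 3 only 2. The count was 3 with the replicate block over all 12 libraries. It was 10 with the GC trend taken out, where 7841 of all 16891 tested genes were called. FOS itself changed by -0.26 ± 0.255 and was not called. At 3% O2 FOSB alone of the 16 passed the threshold, beside 7.31% of all tested genes, at 0.80 ± 0.103 (adjusted p = 0.00125). That count was 0 to 5 under the alternatives, and 0 with the replicate block in the fit of the compared conditions alone. It was 5 with the GC trend taken out, where 1791 of all 16891 tested genes were called higher and 1462 lower.

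For each tested member, the genes with the most alike pattern over the 12 libraries were picked by Pearson correlation of log2 CPM among 10790 genes of at least 5 CPM on average. MMP1 was most like RAB29 (r = 0.994), SCG2 (0.992) and AKR1B1 (0.991), and MMP3 was most like MIR22HG (0.995), PRKCH (0.993) and SCG2 (0.991). MMP1 and MMP3 correlated with each other at r = 0.989. TIMP3 was nearest to ARHGAP30 (0.976), OSBPL10 (0.975) and ITGB2-AS1 (0.973), and its r with MMP1 was -0.58.

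The GC-rich members had other neighbors. MMP2 was nearest to TNIP1 (r = 0.979), ALDH3B1 (0.973, from 12 libraries) and PLAU (0.971), and MMP14 to GAA (0.978), TOLLIP (0.970) and CTSD (0.969). TIMP1 was nearest to MTMR3 (0.967), LGALS3 (0.967) and HOXB9 (0.965), and TIMP2 to AGPAT4 (0.977), LNCOG (0.976) and CITED2 (0.972). MMP9 and MMP10 reached at most 0.921 and 0.805, at their few counts. The 12 points share the 4 conditions and the GC trend of their libraries, so that these values describe likeness only.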

How the data were processed

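Gene-level read counts for 12 libraries were used as deposited. Per the labels, the authors aligned 150-base reads of poly(A) RNA to GRCh38 with STAR and counted them with featureCounts, and versions, strand setting and handling of shared reads are not given in the sources used here. All 58735 identifiers matched GENCODE release 29, and 58207 had a current symbol. Genes were kept by edgeR's filter (minimum count 10, minimum total 15), which left 16891.

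Libraries were scaled by TMM, CPM was computed from these library sizes, and levels per kilobase used the merged exon length. Comparisons used edgeR 4.0.16 in R 4.3.3 (quasi-likelihood test, 4 condition means, all 12 libraries, 8 residual degrees of freedom, called at a Benjamini-Hochberg adjusted p under 0.05 over all tested genes). The fit was tested on simulated counts that held no GC trend, so that this test does not cover such a trend. Alternatives were DESeq2 1.42.0, its size factors, other filters, a replicate block, the compared conditions alone, each library left out, and, chosen after seeing the data, a GC correction (lowess, span 0.3). The common biological coefficient of variation was 16.3%.

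The members and lists were chosen with earlier results of these data known. All members are named, as are up to 3 called genes per direction of each list with a mean of at least 1 CPM, all 16 cluster genes, and the 3 most alike genes; other names were chosen after their values were seen. All 3 pairs of same-numbered replicates deviated together in 1 comparison only, 3% against 20% O2 without Doxy. There the 3 correlations of their deviations were 0.19 to 0.497 (-0.473 to 0.231 between differently numbered libraries). These ranges overlapped. P-values measure the spread between libraries of 1 clone that were labelled as biological replicates. That spread was unequal: the median chi-square per degree of freedom of well-counted genes was 1.47 at 20% O2 without Doxy. It was 6.89 at 20% O2 with Doxy, 5.99 at 3% O2 with Doxy and 3.9 at 3% O2 without Doxy. The fit used 1 shared estimate of the spread, and the cause of the difference was not tested.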

Additional observations from a re-analysis of the deposited data

Results flagged for a closer look

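The responses to FDX2 loss at 3% and 20% O2 differed, by a test of the difference in edgeR's model, for 13 of the genes followed here. Of all tested genes, 7.29% were called in that test. The lists held 9 tested members, 7 other MMP genes, 15 activators, inhibitors and partners, 17 ADAM and ADAMTS proteases, 16 transcription factors and 11 cluster genes. Some genes stood in more than 1 list, and the lists were chosen with earlier results known, so that the 13 genes cannot be read against the 7.29%. Among the members the difference (3% minus 20% O2, log2) was -0.415 for MMP1, -0.878 for MMP3 and 0.355 for TIMP3.

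Among the other genes it was negative, a smaller or opposite response at 3% O2, for MMP12 (-1.214), BIRC3 (-0.866), FOSB (-0.703), TFPI2 (-0.386), SPOCK1 (-1.839) and ETS1 (-0.299). ETS1, a transcription factor that acts on MMP promoters, changed by 0.17 at 20% O2 and by -0.13 at 3% O2, of which only the first was called. The difference was positive for SDC1 (0.873), CAV1 (0.436), ADAMTS6 (0.484) and ADAMTS3 (0.461), each of which fell at 20% O2 and was not called at 3% O2.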

How the results depend on the processing

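Over 663 recomputed values of the 9 tested members, 593 kept their direction and their side of the threshold, 14 no longer passed it, 29 newly passed it and 27 changed sign. MMP3 kept its calls on FDX2 loss and in the difference of the responses, and MMP1 and TIMP3 kept theirs on FDX2 loss at 20% O2 and at 3% against 20% O2 without Doxy, under every alternative. MMP1 on FDX2 loss at 3% O2 was lost under the replicate block fitted to the compared conditions alone (adjusted p = 0.129), as were, at 3% against 20% O2 with Doxy, TIMP3 (0.567) and MMP3 (0.681, and 0.0608 for the compared conditions alone). In that comparison, on FDX2 loss and in the difference of the responses, the block changed no call beyond those and that of MMP1 in the difference. Whether same-numbered libraries were paired is not given in the labels, and the correlations of their deviations could not decide it. On FDX2 loss at 3% O2 these were -0.378 to 0.648, against -0.703 to 0.663 between differently numbered libraries.

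The genes called on FDX2 loss at 3% O2 numbered 1235, against 218 for the compared conditions alone, 1 and 676 with the replicate block (alone and over all 12 libraries), 678 without a filter, 1944 with DESeq2, 3253 with the GC correction, and 581 to 1605 with each library left out. At 3% against 20% O2 with Doxy they numbered 341, against 128 for the compared conditions alone, 12 and 218 with the replicate block, 629 with DESeq2, 1265 with the GC correction, and 190 to 388 with a library left out. In the difference of the responses they numbered 1231, against 672 without a filter, 615 with the replicate block, 1916 with DESeq2, 3093 with the GC correction, and 520 to 2191 with a library left out. At 3% against 20% O2 without Doxy, leaving out a library gave 2321 to 4200 against 4360. The cause of these shifts was not tested.

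Sign changes concerned MMP9 and MMP10, with few counts, and MMP14, TIMP1 and TIMP2, whose changes there were not called. MMP14 in the difference of the responses (0.002) became -0.0231 with 10 counts in every library, -0.0076 with DESeq2 size factors, -0.0075 with DESeq2, -0.244 with the GC correction, which passed the threshold (adjusted p = 0.0225), and -0.136 to 0.157 with a library left out. At 3% against 20% O2 without Doxy, MMP14 became -0.147 with the GC correction (adjusted p = 0.0287) and -0.15 with the replicate block added to it, and MMP9 -0.142 and -0.151. With a library left out, the range reached -0.0072 to 0.363 for MMP9, -0.401 to 0.109 for MMP10 and -0.0633 to 0.0201 for TIMP2 in that comparison. It reached -0.0516 to 0.654 for MMP10, -0.0362 to 0.240 for MMP14, -0.0264 to 0.131 for TIMP1 and -0.0151 to 0.161 for TIMP2 at 3% against 20% O2 with Doxy. On FDX2 loss it reached -0.045 to 0.316 for MMP9 at 20% O2, and -0.513 to 0.207 for MMP9, -0.012 to 0.382 for MMP10 and -0.0016 to 0.254 for MMP14 at 3% O2, and in the difference -0.649 to 0.0701 for MMP9. Depth limits MMP9, MMP10 and MMP13, and 3 libraries a condition limit all others.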
